A study of Homo sapiens with 6 samples.

Results

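The desmosome is the spot-like junction that rivets neighbouring epithelial cells together, and the transcripts of its components were compared between 3 control and 3 DAPT libraries of HSC-4 cells. The members were taken by gene symbol, and all 10 of them (DSG1, DSG2, DSG3, DSC2, DSC3, JUP, PKP1, PKP2, PKP3 and DSP) were found once each among the 58884 genes of the deposited tables. HSC-4 cells are an established human line derived from a squamous cell carcinoma of the mouth, grown here in serum-containing medium. DAPT inhibits γ-secretase, the membrane protease whose cut sets the intracellular part of Notch receptors free. The treated cells received 50 μM DAPT for 24 h. The study's methods describe the controls as cells with 0.5% DMSO, the vehicle, for the same time, whereas the series' design text names growth medium and DAPT but no vehicle, and the deposited control tables carry the letters GM, which no source spells out. An effect of the vehicle therefore cannot be told apart from that of DAPT if the control cultures had none. Each group holds 3 libraries from a single cell line, and nothing in the labels says that they came from separate cultures, so p-values measure the spread between these libraries, which may be technical. These bulk libraries cannot tell fewer cells that express a gene from less RNA per cell.

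In a desmosome, 2 families of cadherins, the desmogleins (DSG) and desmocollins (DSC), reach across the gap between cells and bind each other. Their cytoplasmic tails bind plakoglobin (JUP) and the plakophilins (PKP), both armadillo-repeat proteins. Desmoplakin (DSP) links these to the keratin filaments of the cell. DSG2, DSC2 and PKP2 are known from nearly all desmosome-bearing tissues, including simple epithelia and heart, while DSG1, DSG3, DSC3 and PKP1 are typical of stratified epithelia such as oral mucosa and skin. Desmosomes hold the layers of such epithelia together, and keratinocytes change the make-up of their desmosomal cadherins as they differentiate.

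Of the 10 members, 9 passed the filter on low counts and were tested, and DSG1 was at 0 reads in every library. With DAPT, PKP1 fell by 19.8% and DSP by 18.4%, the 2 largest changes. DSC3 fell by 10.5% and DSC2 by 9.63%, and PKP2 rose by 13.5%. DSG2, DSG3, JUP and PKP3 did not pass the test. Thus 5 of the 9 tested members had an adjusted p-value under 0.05, 4 lower and 1 higher, where 35.2% of the 15001 tested genes passed, 18.0% lower and 17.2% higher. Of all calls 48.7% were higher, and 61.5% with scaling by library size alone. No member reached a 2-fold change (0 of 9), and 2.37% of all tested genes did so with an adjusted p-value under 0.05. The median size of the log2 fold change, regardless of sign, was 0.15 for the members and 0.18 for all tested genes. The signed median was -0.12 for the members and 0.01 for all tested genes. The shares and medians over all tested genes were not matched to the members for expression level.

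The upstream sequences of 4 members are shown. They are those of PKP1 and DSP, which changed most, and of DSG1 and DSG3, from the desmoglein cluster on the plus strand of chromosome 18, of which the first gave no reads and the second 5391 to 7703 reads per library. Each is the RefSeq sequence of GRCh38 from 250 to 74 bases before the RefSeq transcription start, 5′ to 3′ on the gene's strand, and it lies outside the deposited gene. Capitals mark the motifs found.
PKP1: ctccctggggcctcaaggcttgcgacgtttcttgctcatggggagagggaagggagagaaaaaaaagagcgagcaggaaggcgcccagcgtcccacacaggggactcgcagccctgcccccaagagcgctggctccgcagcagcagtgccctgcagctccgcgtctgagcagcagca
DSP: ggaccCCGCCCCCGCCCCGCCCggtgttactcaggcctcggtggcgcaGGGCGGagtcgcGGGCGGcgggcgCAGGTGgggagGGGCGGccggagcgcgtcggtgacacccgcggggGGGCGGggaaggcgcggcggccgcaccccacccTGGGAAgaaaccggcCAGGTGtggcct
DSG1: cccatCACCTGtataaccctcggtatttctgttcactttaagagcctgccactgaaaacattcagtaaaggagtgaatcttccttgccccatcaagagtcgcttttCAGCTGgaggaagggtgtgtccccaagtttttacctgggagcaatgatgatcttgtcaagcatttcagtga
DSG3: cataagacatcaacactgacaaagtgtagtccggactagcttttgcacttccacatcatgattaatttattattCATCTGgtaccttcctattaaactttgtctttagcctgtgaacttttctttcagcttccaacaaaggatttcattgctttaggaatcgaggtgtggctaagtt
The windows lie at chr1:201283256-201283432 for PKP1, chr6:7541421-7541597 for DSP, chr18:31317910-31318086 for DSG1 and chr18:31447491-31447667 for DSG3, all on the plus strand. The motifs searched on both strands were the core TGGGAA bound by RBPJ, the DNA-binding partner of the Notch intracellular domain, the AP-1 site TGANTCA, the grainyhead-like site AACCGGTT, the GC box GGGCGG and the E-box CANNTG. In the DSP window, 7 GC boxes were found (the pair that begin 239 and 234 bases before the start overlap), 2 E-boxes, and 1 RBPJ core that begins 100 bases before the start. The PKP1 window held 0 of the 5 motifs. The DSG1 window held 2 E-boxes and the DSG3 window 1 E-box. Over 27305 RefSeq promoters, windows of the same place and length held at least 1 match in 15.8% of cases for the RBPJ core, 4.69% for AP-1, 0.0916% for the grainyhead-like site, 30.5% for the GC box and 51.1% for the E-box, and 0.275% held 7 or more GC boxes. The windows differed in base composition, with 80.8% G or C for DSP, 65.0% for PKP1, 45.8% for DSG1 and 37.3% for DSG3. A match of letters is a description and not a binding site. PKP2 and PKP3 are not in the promoter table used.

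The total counts lay between 12276313 and 16317672 per library. The cells carried the markers of squamous epithelium, with 4189 to 4333 CPM (counts scaled to a common library size with TMM factors) summed over 6 marker genes in the controls and 2748 to 2902 with DAPT. The lower sum was mainly KRT5, with TP63, SFN and KRT14 also lower, while CDH1 and EPCAM of the same list were higher (log2 fold change of EPCAM 0.27, adjusted p = 1.19e-04, edgeR). KRT14 was at most 49 reads in any library, and KRT5 at least 17027. KRT14 has near-identical copies, and reads that map to several places were not counted, so its level is uncertain. As a check of the treatment, the 4 Notch target genes HES1, HES4, HEY1 and NRARP were all lower with DAPT. Their median log2 fold change was -1.46, and 18.0% of all tested genes were lower. Replicate 1 differed most from the other libraries in both groups, by the chi-square per degree of freedom between pairs of libraries. In the controls its pairs gave 5.38 and 5.30, against 1.58 for the remaining pair. With DAPT its pairs gave 4.12 and 3.93, against 1.81 for the remaining pair. Control replicate 1 also stood apart in fibroblast markers. Its 7 fibroblast marker genes summed to 565 CPM, against 57.1 and 58.3 CPM in the other control libraries and 49.9 to 55.2 CPM with DAPT. Without COL1A1 the sum was 292 CPM in control replicate 1, 3.22 and 4.54 CPM in the other controls, and 1.62 to 3.37 CPM with DAPT. COL1A2, which encodes a chain of the fibroblast collagen type I, had 3452 reads in control replicate 1 and 3 to 28 reads in the other 5 libraries. COL3A1 had 491 reads there and at most 4 elsewhere. The 5 endothelial markers summed to 1.24 to 1.80 CPM in the controls and 2.41 to 2.98 CPM with DAPT. PECAM1 had at most 1 read per library, VWF 9 to 21, and CDH5 2 to 7 reads in the controls and 19 to 36 with DAPT (log2 fold change 2.42, adjusted p = 4.93e-05, edgeR). The leukocyte markers summed to 10.6 to 13.0 CPM in the controls and 8.91 to 10.6 CPM with DAPT, nearly all of it CD14 (120 to 167 reads, log2 fold change -0.30, adjusted p = 0.0444, edgeR), while CD3E was at 0 and PTPRC had at most 2 reads. Of the 4 melanocyte markers TYR and MLANA were at 0, DCT had at most 4 reads and PMEL 18 to 46, and their sum was 1.65 to 2.96 CPM in the controls and 1.23 to 2.41 CPM with DAPT. The part of these transcripts in the results was not tested, and each member is given with and without control replicate 1. Without that library, 7 of 9 members had an adjusted p-value under 0.05, 5 lower and 2 higher, where 37.1% of 15162 tested genes passed, 19.1% lower and 18.0% higher.

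**Figure D1:**
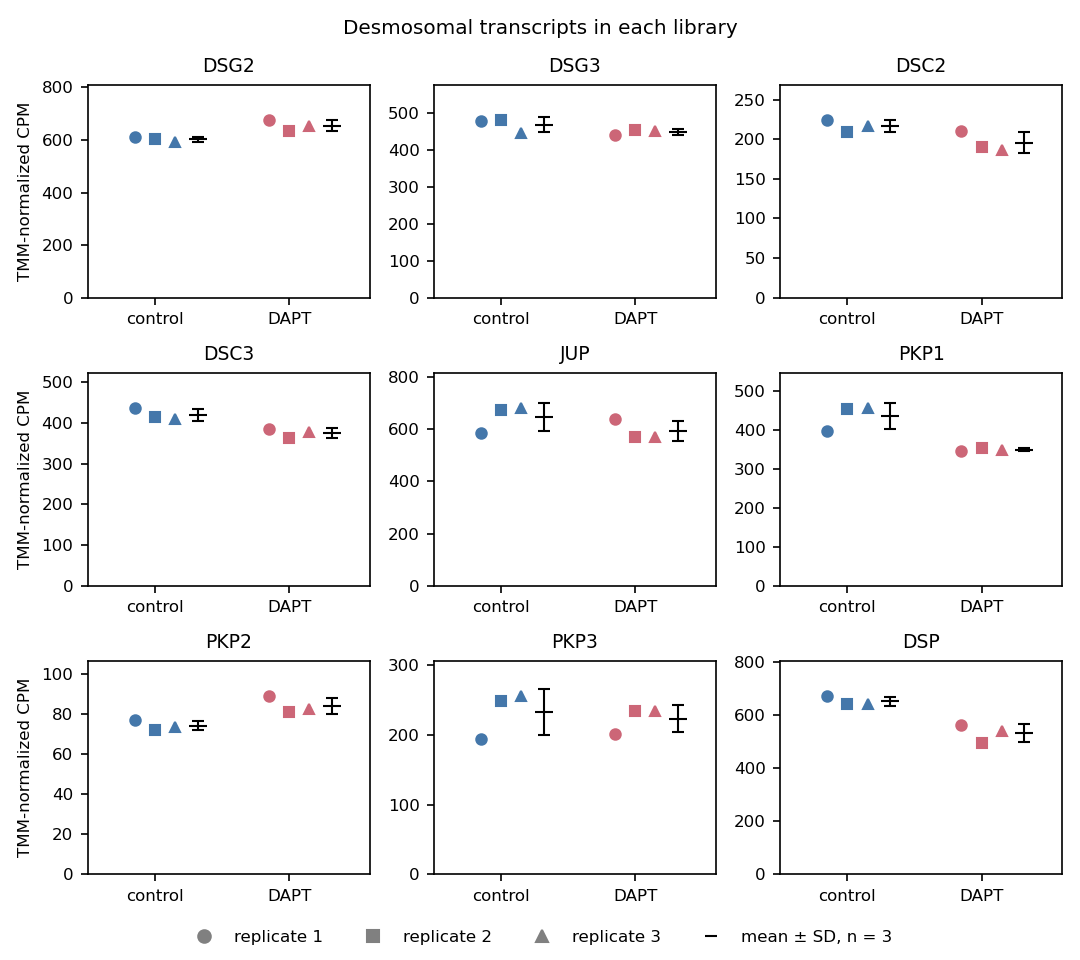
Level of each tested desmosomal transcript in TMM-normalized CPM (vertical axes, from 0) in the 3 control and 3 DAPT libraries. Symbols stand for the replicate number and black bars for the mean ± SD (n = 3). The groups do not overlap for DSG2, PKP2, DSC3, PKP1 and DSP, and control replicate 1 is the lowest control for JUP, PKP1 and PKP3.

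Of the desmogleins, DSG1 and DSG3 are known as targets of the autoantibodies of pemphigus. DSG1 (chromosome 18, 31318160 to 31359246) had 0 reads in all 6 libraries. A count of 0 allows a level of up to 3 reads, which is 0.186 to 0.248 CPM depending on the library and covers counting error only. The reads of DSG1-AS1, the antisense gene that overlaps 344 exonic bases of DSG1, numbered at most 3 per library.

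DSG2 (chromosome 18, 31498177 to 31549008) was at 611, 605 and 593 CPM in the control libraries and at 676, 633 and 654 CPM with DAPT. Every DAPT library lay above every control library. DSG2 differed by 0.12 on the log2 scale (standard error 0.05), and it missed the threshold (edgeR quasi-likelihood test, Benjamini-Hochberg adjusted p = 0.0535). Without control replicate 1 it was 0.13 and passed the same edgeR test (adjusted p = 0.024). It also passed with limma-voom (adjusted p = 0.0431) and with scaling by library size alone (edgeR, adjusted p = 0.00668), and in none of the other 11 alternatives. DSG2 stayed above 0 in all 14 alternatives.

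DSG3 (chromosome 18, 31447741 to 31478702), the desmoglein of the basal and lower layers of stratified epithelium, was at 479, 481 and 446 CPM in the controls and at 439.6, 453 and 452 CPM with DAPT. The groups overlapped through control replicate 3. This gave a log2 fold change of -0.06 with a standard error of 0.05 (adjusted p = 0.316, edgeR). It did not pass in any of the 14 alternatives, with values from -0.10 to -0.02, and was -0.05 without control replicate 1.

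The desmocollins pair with the desmogleins across the cell gap. DSC3 (chromosome 18, 30989365 to 31042815), the form of the lower layers of stratified epithelium, was at 436, 413 and 409 CPM in the controls and at 386, 363 and 377 CPM with DAPT. All DAPT values lay below all control values. DSC3 fell by 0.16 on the log2 scale with a standard error of 0.05 (adjusted p = 0.0132, edgeR) and stood at -0.13 without control replicate 1 (adjusted p = 0.024, edgeR). The call was lost without DAPT replicate 2 (-0.14, adjusted p = 0.0823) and with scaling by library size alone (-0.11, adjusted p = 0.0654), both in edgeR.

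DSC2 (chromosome 18, 31058840 to 31102522) was at 224, 209 and 216 CPM in the controls and at 210.4, 189.8 and 186 CPM with DAPT. The highest DAPT library, replicate 1, lay between the controls, so the groups overlapped. The log2 fold change of -0.15 (standard error 0.05) just passed in edgeR (adjusted p = 0.0381). It stayed below 0 in all 14 alternatives but passed in 8 of them. Without control replicate 1 it was -0.12 (adjusted p = 0.0735, edgeR), and the edgeR call was also lost without control replicate 3 (-0.15, adjusted p = 0.0781), without DAPT replicate 2 (-0.12, adjusted p = 0.157) and without DAPT replicate 3 (-0.11, adjusted p = 0.194).

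The armadillo proteins join the cadherin tails to desmoplakin. Plakoglobin, encoded by JUP (chromosome 17, 41754604 to 41786931), also occurs in adherens junctions. JUP was at 584, 673 and 679.8 CPM in the controls and at 638, 570.4 and 569.8 CPM with DAPT. The groups overlapped, because control replicate 1 was low and DAPT replicate 1 high within their groups. JUP had a log2 fold change of -0.12 with a standard error of 0.06 (adjusted p = 0.122, edgeR). Without control replicate 1 it was -0.19 (adjusted p = 0.00313, edgeR) and without DAPT replicate 1 it was -0.18 (adjusted p = 0.0284, edgeR), so either library decided the call.

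PKP1 (chromosome 1, 201283452 to 201332993), the plakophilin of stratified epithelia whose loss causes skin fragility, had the smallest adjusted p-value of the members. It was at 398, 454 and 456 CPM in the controls and at 347, 354 and 348 CPM with DAPT. All DAPT values lay below all controls, and they lay closer together (SD 3.82 CPM) than the controls (SD 33.3 CPM, n = 3 each). PKP1 fell by 0.32 on the log2 scale with a standard error of 0.05 (adjusted p = 7.61e-05, edgeR). It passed in all 14 alternatives, with values from -0.38 to -0.27, the former without control replicate 1 (adjusted p = 1.26e-07, edgeR).

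PKP2 (chromosome 12, 32790745 to 32896840), the plakophilin of simple epithelia and heart, was the lowest of the tested members by CPM. With all 6 libraries it was the 1 member called higher. It was at 76.9, 72.3 and 73.7 CPM in the controls and at 89.0, 81.4 and 82.6 CPM with DAPT, without overlap. PKP2 rose by 0.18 on the log2 scale with a standard error of 0.06 (adjusted p = 0.0146, edgeR), and by 0.21 without control replicate 1 (adjusted p = 0.00412, edgeR). The edgeR call was lost without control replicate 2 (0.16, adjusted p = 0.076), without control replicate 3 (0.17, adjusted p = 0.0593) and without DAPT replicate 1 (0.14, adjusted p = 0.0811), while the direction held in all 14 alternatives.

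PKP3 (chromosome 11, 392614 to 404908), a plakophilin found in most epithelia, was at 194, 249 and 255 CPM in the controls and at 201, 234 and 234 CPM with DAPT. Replicate 1 was the lowest library in both groups, and the groups overlapped. The log2 fold change was -0.06 with the largest standard error of the members (0.12, adjusted p = 0.739, edgeR). Without control replicate 1 it was -0.18 and passed (adjusted p = 0.0221, edgeR). Without DAPT replicate 1 it was 0.01 and without control replicate 3 also 0.01, so its direction was not stable.

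DSP (chromosome 6, 7541617 to 7586714) encodes the plakin that ties the plaque to keratin. It was at 669, 642 and 641 CPM in the controls and at 560.3, 493 and 541 CPM with DAPT, without overlap. DSP fell by 0.29 on the log2 scale with a standard error of 0.05 (adjusted p = 1.32e-04, edgeR), and stood at -0.27 without control replicate 1 (adjusted p = 8.1e-05, edgeR). DSP passed in all 14 alternatives, with values from -0.33 to -0.24.

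**Figure D2:**
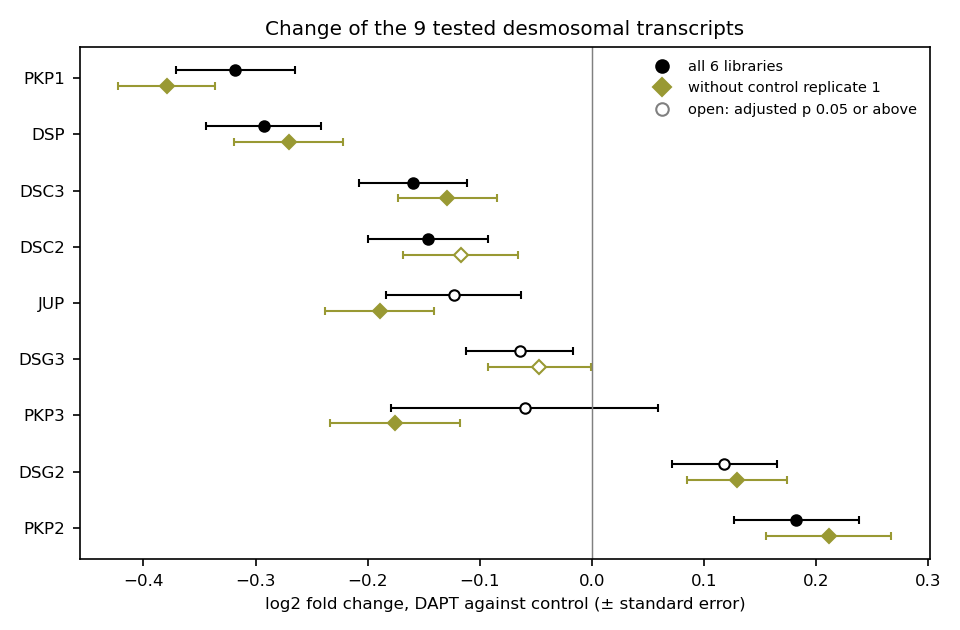
Log2 fold changes of DAPT against control for the 9 tested desmosomal transcripts (horizontal axis, bars show the standard error), from all 6 libraries (black circles) and without control replicate 1 (diamonds). Filled symbols have an adjusted p-value under 0.05 in edgeR. PKP1 and DSP lie farthest below 0, PKP2 and DSG2 lie above 0, and JUP and PKP3 move most when control replicate 1 is left out.

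The DAPT and control libraries did not overlap for 5 members, 3 lower (DSC3, PKP1 and DSP) and 2 higher (DSG2 and PKP2). Over all tested genes this held for 46.2%, with 22.6% lower and 23.6% higher. The tested members were among the well-expressed genes, and the lowest of them, PKP2, had a control level above that of 77.4% of tested genes, while DSP was above 99.0%. A change larger in size than that of PKP1 was seen in 26.8% of tested genes.

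Levels of different genes were compared per length, in CPM per kilobase of the deposited exonic gene length (RPKM). In the controls JUP was highest at 131 ± 10.8 RPKM (SD, n = 3), followed by DSG2 at 99.5 ± 1.52, DSG3 at 84.0 ± 3.52, PKP1 at 70.2 ± 5.36, DSP at 64.7 ± 1.59, PKP3 at 61.4 ± 8.86 and DSC3 at 54.5 ± 1.89 RPKM. DSC2 followed at 17.3 ± 0.626 and PKP2 at 10.5 ± 0.336 RPKM. The control ranges of PKP1 and DSP, of DSP and PKP3, and of PKP3 and DSC3 overlapped, so these neighbours did not differ beyond their spread, and all other neighbours in this order were apart. With DAPT the order of the first 3 and last 3 tested genes was the same, and PKP3 (58.9 ± 5.03 RPKM) stood before PKP1 (56.3 ± 0.615 RPKM) and DSP (52.9 ± 3.45 RPKM, SD, n = 3 each). The deposited length joins all exons of a gene. With the length of the canonical transcript instead, an alternative chosen after the data were seen, PKP3 moved to 82.7 RPKM next to DSG3, and PKP2 and DSC2 came level at 17.6 and 17.5 RPKM in the controls.

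Summed per length over the 5 cadherins, the members gave 261, 256 and 248 RPKM in the controls and 257, 248 and 253 RPKM with DAPT, with overlap. The sum over all 10 members was 572, 606 and 601 RPKM in the controls and 564, 543 and 552 RPKM with DAPT. With TMM scaling all DAPT sums lay below all control sums, and the mean was 6.77% lower. The exact permutation test gave p = 0.1, the smallest that 3 against 3 libraries allow. The TMM factors were 0.980 to 0.986 in the controls and 1.01 to 1.02 with DAPT, and the gap between the groups rests on these factors. These sums rest mainly on the abundant members.

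The make-up within each family was compared as the share of each gene in the family's counts per length, which does not depend on the scaling of the libraries. Of the desmogleins, DSG3 made up 46.0%, 46.3% and 44.9% in the controls and 41.4%, 43.7% and 42.8% with DAPT, and DSG2 made up the rest. The DSG3 share was lower in every DAPT library, by 3.09 percentage points in the means, and the difference was -2.98 points without control replicate 1. The exact permutation test, two-sided, gave p = 0.1, the smallest p that 3 against 3 libraries allow, so it cannot reach the threshold. Of the plakophilins, PKP1 made up 50.7%, 49.1% and 48.6% in the controls and 46.0%, 43.7% and 43.3% with DAPT. This was 5.14 points lower, again without overlap (exact permutation p = 0.1), and the difference was -4.49 points without control replicate 1. PKP2 made up 7.48% ± 1.01 in the controls and 9.44% ± 0.833 with DAPT (SD, n = 3 each), with every DAPT library above every control. For PKP3 the shares of 43.1% ± 2.14 and 46.2% ± 2.24 (SD, n = 3 each) overlapped between the groups. Of the desmocollins, DSC3 made up 75.9% ± 0.434 in the controls and 75.7% ± 0.903 with DAPT (SD, n = 3 each), a difference of -0.15 points within the spread (exact permutation p = 0.9). Adjusted over the 3 planned shares (DSG3, DSC3 and PKP1), the exact permutation p-values were 0.15, 0.9 and 0.15.

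**Figure D3:**
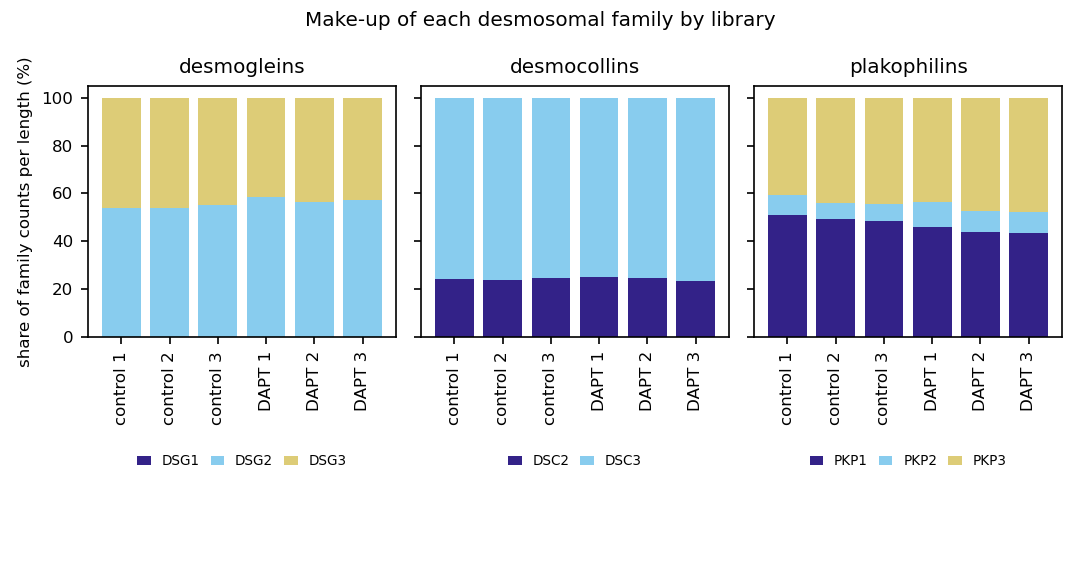
Share of each gene (%, vertical axis) in the counts per length of its family in each of the 6 libraries, for desmogleins, desmocollins and plakophilins. DSG1 is at 0% throughout, DSG3 and PKP1 take smaller shares in the 3 DAPT libraries than in the 3 controls, and the DSC2 to DSC3 make-up overlaps between the groups.

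Other genes linked to the desmosome were taken from a list of 8. Of the 6 that were tested, 1 was higher with DAPT and 0 were lower, where 17.2% of all tested genes were higher and 18.0% lower. PPL, which encodes periplakin, a plakin of the cornified envelope that also attaches to desmosomes, rose from 129 ± 7.54 to 212 ± 10.5 CPM (SD, n = 3 each). On the log2 scale the difference was 0.72 with a standard error of 0.05 (adjusted p = 1.23e-09, edgeR). EVPL, which encodes its partner envoplakin, had a log2 fold change of -0.07 (adjusted p = 0.509, edgeR) and was called lower without control replicate 1 (-0.17, adjusted p = 0.0395, edgeR). PERP, a tetraspan protein of desmosomes, had a log2 fold change of 0.03 (adjusted p = 0.624, edgeR), and PKP4, a relative of the plakophilins, one of -0.03 (adjusted p = 0.68, edgeR). DSC1, a desmocollin of differentiated layers, had 6 to 13 reads per library, corneodesmosin (CDSN) 2 to 7, and DSG4 had 0 in all libraries.

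Desmoplakin attaches to keratins, and all 3 basal keratins and all 4 keratins of activated keratinocytes were lower with DAPT. Of all tested genes, 18.0% were lower. KRT14 had at most 49 reads in any library and KRT6B at most 27. KRT5, the main basal type II keratin, fell from 2695 ± 62.7 to 1313 ± 43.4 CPM (SD, n = 3 each), which is -1.04 on the log2 scale (adjusted p = 3.34e-13, edgeR). KRT15 had a log2 fold change of -0.45, KRT17 of -0.88, KRT6A of -1.48 and KRT16 of -2.27. Of the suprabasal keratins, KRT13, typical of oral mucosa, fell from 116 ± 2.13 to 31.9 ± 2.70 CPM, and KRT10 rose from 49.5 ± 0.811 to 61.5 ± 5.06 CPM (SD, n = 3 each). KRT1 and KRT4 were not tested. KRT6A and KRT6B, like KRT16, KRT17 and KRT14, are near-identical in stretches, so their counts are uncertain.

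In the list for adherens junctions, the other cadherin-based junction, 2 of 13 genes were higher and 2 lower, where 17.2% of all tested genes were higher and 18.0% lower. E-cadherin (CDH1) rose from 511 ± 18.1 to 616 ± 14.2 CPM (SD, n = 3 each, log2 fold change 0.27, adjusted p = 1.39e-04, edgeR). AFDN, which encodes the actin-binding afadin, rose by 0.26 on the log2 scale. β-catenin (CTNNB1) fell by 0.19 and the adhesion molecule NECTIN1 by 0.52 on that scale. Of 11 tested tight junction genes, 5 were higher and 0 lower with all libraries, and 4 and 0 without control replicate 1. Occludin (OCLN) had a log2 fold change of 0.87, TJP3 of 0.53, MARVELD2 of 0.45, TJP1 of 0.38 and CGN of 0.13. CGN was the gene that did not pass without control replicate 1. Among 9 genes of hemidesmosomes, which anchor cells to the basement membrane, 2 were higher (PLEC, 0.40, and LAMA3, 0.18) and 3 lower (ITGA6, -0.38, CD151, -0.26, and DST, -0.22). Without control replicate 1, 4 were lower, with COL17A1 added (-0.14, adjusted p = 0.0123, edgeR). The median log2 fold change was 0.02 for the adherens junction list, 0.16 for the tight junction list and 0.06 for the hemidesmosome list, beside -0.12 for the 9 desmosomal members. Without control replicate 1 these medians were -0.0017, 0.098, -0.0028 and -0.13, so those of the adherens junction and hemidesmosome lists turned sign. The differences between lists were not tested.

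**Figure D4:**
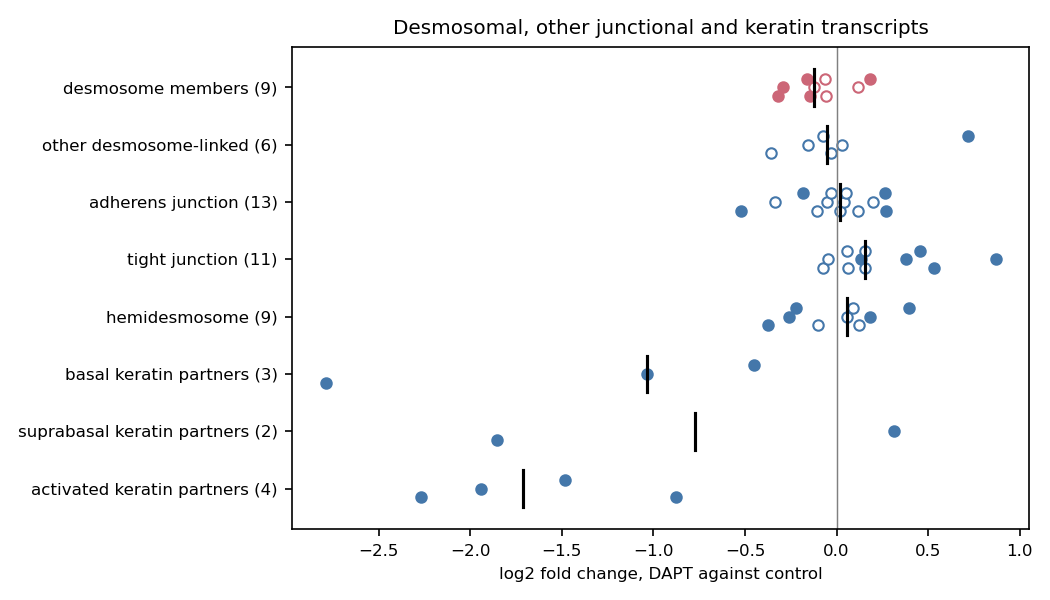
Log2 fold changes of DAPT against control (horizontal axis) for each tested gene of the desmosomal members and of 7 other lists, with the number of tested genes in brackets. Filled circles have an adjusted p-value under 0.05 in edgeR and black lines mark the median of each list. The members lie between -0.32 and 0.18, and the basal and activated keratins lie at or below -0.45.

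Of 5 tested proteases that cut desmosomal cadherins and their inhibitor, 1 was higher, 1 lower and 3 did not pass. The shares over all tested genes were 17.2% higher and 18.0% lower. ADAM10, a sheddase of desmoglein 2, rose from 455 ± 13.0 to 497 ± 12.1 CPM (SD, n = 3 each, log2 fold change 0.13, adjusted p = 0.0416, edgeR). KLK7, a peptidase that degrades desmosomal proteins during shedding of skin, fell from 4.29 ± 0.540 to 2.78 ± 0.482 CPM (SD, n = 3 each, adjusted p = 0.0151, edgeR). KLK14 was not tested. Transcription factors of squamous epithelium moved in both directions. TP63, the master regulator of stratified epithelia, fell from 377 ± 6.45 to 251 ± 5.91 CPM (SD, n = 3 each, log2 fold change -0.58, adjusted p = 2.82e-09, edgeR). ZNF750 had a log2 fold change of -2.14, GRHL3 of -1.15 and KLF5 of -0.22, while KLF4 rose by 0.81 and OVOL1 by 0.26 on the log2 scale. OVOL1 did not pass without control replicate 1. GRHL1, a known activator of DSG1, had a log2 fold change of -0.04 (adjusted p = 0.731, edgeR).

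The genes whose pattern over the 6 libraries was closest to that of PKP1, by Euclidean distance of mean-centred log2 CPM, were FPGS (distance 0.0403), CDCA5 (0.0467), TNFAIP2 (0.0471), FANCG (0.0492) and PFKP (0.0512). Their log2 fold changes lay between -0.34 and -0.28. All 5 shared with PKP1 the lower value of control replicate 1 within its group, for example 606 CPM against 688 CPM in both other controls for TNFAIP2. These likenesses rest on 6 libraries that share the treatment, and 1239 of 15000 other genes had a Pearson correlation above 0.9 with PKP1.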

How the data were processed

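Per the study's methods, the authors prepared stranded mRNA libraries, called bases with bcl2fastq 2.19 (submitters' processing notes), and used Trim Galore on the single-end reads before alignment by HISAT2 (build GRCh38). Exonic reads on the sense strand were then summed per gene of Ensembl 96 by featureCounts 1.6.3, per the file headers. The submitters' processing notes instead list HTSeq and DESeq2, and the study's methods name edgeR. The headers were followed. The deposited values are raw read counts, 1 file per library, and gene length in bases is given beside them. By the counting defaults, reads that map to several places or overlap several genes were not counted. No other gene shared exonic bases with a member on its strand.

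Groups and replicate numbers came from the sample titles. Symbols were matched by identifier (58472 of 58884 genes). edgeR 4.0.16 in R 4.3.3 was used with its low-count filter (minimum count 10), TMM factors (0.980 to 1.02), a robust quasi-likelihood fit and Benjamini-Hochberg adjustment over 15001 genes, with an adjusted p-value under 0.05 as threshold. Standard errors were derived from the test statistic. The fit was tested on simulated data in which 200 genes changed 2-fold. No member changed that much, so the recovery of changes of the members' size was not tested. Promoters are RefSeq's (GRCh38.p14), and 8 of 10 members were in that table. Named genes were all members, genes of the fixed lists, and the 5 genes closest to the member with the smallest adjusted p. Members and lists were chosen with earlier results of these data known. Alternatives were DESeq2 1.42.0, limma-voom (limma 3.58.1), RLE factors, library size alone, 2 other filters, a fit that was not robust, a replicate block, and each library left out. Some genes of the fixed lists are not reported here.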

Additional observations from a re-analysis of the deposited data

How the results depend on the processing

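PKP1 and DSP kept their direction and their call in all 14 alternatives. With DESeq2 the DSC2 value was -0.15 and missed the threshold (adjusted p = 0.0541). With limma-voom DSG2 was at 0.12 and passed. With library size alone DSG2 was at 0.16 and passed, and DSC2 at -0.10 and DSC3 at -0.11 did not pass. In that setting 4 of 13 adherens junction genes were higher in place of 2. Over all 15001 tested genes, 3445 were then higher in place of 2574. With 1 library left out at a time, 3 to 7 members were called in place of 5. There were 7 without control replicate 1, where 5618 of 15162 tested genes passed. There were 3 without control replicate 3, where 4187 of 15323 tested genes passed. There were also 3 without DAPT replicate 2, where 4174 of 15330 tested genes passed. All fits with 1 library left out called between 4174 and 5618 genes. Over these fits the log2 fold change ran from -0.20 to -0.11 for DSC2, -0.18 to -0.13 for DSC3, 0.095 to 0.14 for DSG2, -0.10 to -0.05 for DSG3, -0.33 to -0.24 for DSP, -0.19 to -0.090 for JUP, -0.38 to -0.29 for PKP1, 0.14 to 0.21 for PKP2 and -0.18 to 0.011 for PKP3. PKP3 turned to 0.006 without control replicate 3 and to 0.011 without DAPT replicate 1. The cause was not tested. Calls over all genes lay between 3974 (DESeq2) and 5618 (without control replicate 1). With the replicate number as a block, 5 members and 5295 genes were called and no member's call changed. Libraries with the same number correlated at 0.00382 to 0.0252 in their deviations from the group means. Those with different numbers correlated at -0.0368 to 0.0151. These values are over all tested genes, and deviations from a mean of 3 libraries are not independent. Whether libraries with the same number shared a handling step was not tested. With 3 libraries a group, changes of the size of DSG3 and PKP3 were near their standard errors, and a level of DSG1 under its limit was not detectable at this depth.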
